A study of Mus musculus with 12 samples.

Results

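A set of 10 genes around the transcription factor NRF2 were followed in mouse liver: its own gene Nfe2l2, the gene of its repressor Keap1, and 8 genes known as NRF2 targets, of which Gclc, Gclm and Gsr serve glutathione, Txnrd1 and Srxn1 serve the thioredoxin and peroxiredoxin system, and Nqo1, Ugdh and Ephx1 serve detoxification. They were taken by symbol from the count tables, where they are 10 of 24062 genes. The list is one of names, drawn up when earlier results of these data were known. The question was whether the diet with BIBB-515, an inhibitor of lanosterol synthase in cholesterol synthesis, moved their mRNA. Liver RNA-seq libraries were available for 12 female C57BL/6J mice with no engineered allele. The mice arrived at an age of 6 weeks, were acclimated for 2 weeks and ate the control diet for 3 days (15% of kcal as fat, 65% as carbohydrate and 20% as protein). The control group of 6 mice then stayed on that diet, and the BIBB-515 group of 6 mice ate a matched diet with BIBB-515 at 55 mg per kg body weight, for 10 days in both. The study kept 11 mice per group, housed several to a cage, and which of them shared a cage is not given in the sources used here. There was 1 dose and 1 time, so inhibition of lanosterol synthase and any other action of the compound cannot be told apart.

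NRF2 is held in the cytoplasm by KEAP1, a sensor protein with reactive cysteines that hands it over for ubiquitination and degradation. When electrophiles or oxidants modify KEAP1, NRF2 escapes, enters the nucleus, pairs with a small MAF protein and binds antioxidant response elements, short DNA sequences near genes of glutathione, thioredoxin and drug metabolism. Because NRF2 is controlled largely at the level of the protein, its activity in liver is usually read from the mRNA of its targets. Several of these targets also answer to other sensors of foreign compounds in hepatocytes, and Ephx1 is a classic example.

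The gene tables held 22764819 to 31058370 counts per library, and the totals of the groups overlapped. The 20 most highly counted genes took 27.7% to 29.8% of the counts in control mice and 23.6% to 25.2% in BIBB-515 mice, without overlap. Hepatocyte markers were abundant in every library, with a summed level of 140200 to 158100 CPM (counts scaled to library size with TMM factors) in control mice and 107100 to 121700 CPM in BIBB-515 mice. Alb made up most of this sum, at 114300 to 127500 CPM in control mice and 81800 to 96000 CPM in BIBB-515 mice. Of the 7 tested, 2, Alb and Ttr, were lower with BIBB-515. The other 5 did not pass, with log2 fold changes from -0.27 (Apoa1) to 0.08 (Asgr1). Of the stellate cell markers 2 of 6, Lrat and Dcn, were lower, with summed levels of 274 to 376 and 262 to 322 CPM. The only exocrine pancreas marker tested, Cela1, was lower, while Cpa1, Prss2, Pnlip and Ctrb1 had between 0 and 3 counts per mouse. None of the tested markers of bile duct cells (5), Kupffer cells and macrophages (6), endothelial cells (6), fat cells (1) or lymphocytes (3) passed the test. Summed levels were 62.8 to 116 and 92.2 to 154 CPM for bile duct cells, 245 to 354 and 230.5 to 364 CPM for Kupffer cells, 184 to 247 and 170 to 235 CPM for endothelial cells, 6.82 to 11.3 and 6.92 to 11.6 CPM for fat cells and 4.07 to 6.56 and 3.67 to 7.17 CPM for lymphocytes, control before BIBB-515. Spp1 made up most of the bile duct sum, at 55.6 to 105 CPM in control mice and 81.7 to 142 CPM in BIBB-515 mice. Fabp4 made up nearly all of the fat cell sum, at 6.82 to 11.2 CPM in control mice and 6.89 to 11.55 CPM in BIBB-515 mice. Lep, a defining fat cell gene, had 0 counts in every mouse. The part of these shifts in the results below was not tested, and in whole liver fewer cells of a type and less RNA per cell cannot be told apart.

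All 10 genes passed the filter of at least 1 CPM in at least 2 of 12 mice. With edgeR's quasi-likelihood test, adjusted over all 12481 tested genes (FDR), 5 of the 10 rose with BIBB-515 at an FDR under 0.05, namely Ugdh, Ephx1, Gsr, Nqo1 and Srxn1. None of the 10 fell. Over all tested genes 13.7% passed in either direction, 7.18% as higher and 6.48% as lower. In 4 of the 10 genes every BIBB-515 mouse lay above every control mouse, against 4.35% of the tested genes. The median log2 fold change was 0.43 over the 10 genes and -0.01 over all tested genes. The other 5 genes, Gclm, Keap1, Gclc, Txnrd1 and Nfe2l2, had log2 fold changes between -0.03 and 0.22 and did not pass.

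**Figure D1:**
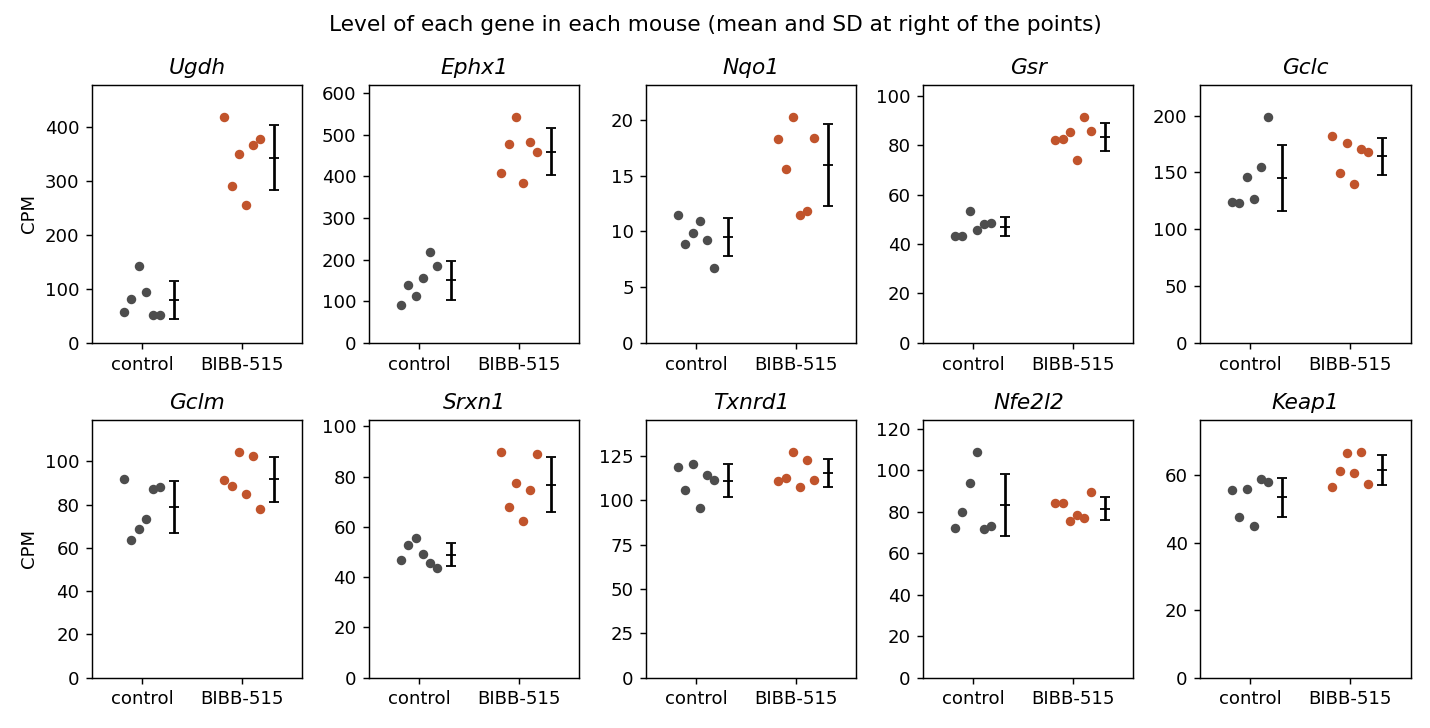
Level of each gene in CPM (y axis, from 0) in each of 6 control (grey) and 6 BIBB-515 (orange) mice, with the mean and SD beside the points. The groups do not overlap for Ugdh, Ephx1, Gsr and Srxn1, touch for Nqo1, where the highest control and the lowest BIBB-515 mouse are both at 11.5 CPM, and overlap for the other genes.

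Antioxidant response elements were looked for in the promoter windows of these genes, 250 bases before to 50 after the start site, from RefSeq on GRCm38.p6, the assembly that mm10 represents. The core searched was TGACNNNGC on both strands, which 12.4% of all 32851 promoter windows hold. Windows were at hand for 8 of the 10 genes, with 3 start sites for Txnrd1, and none for Gclc and Gsr. The core stood in windows of 5 genes, of which Ugdh and Srxn1 rose and Gclm, Txnrd1 and Nfe2l2 did not pass. It was not found in the windows of Nqo1, Ephx1 and Keap1, nor at the other two Txnrd1 starts, and elements farther away were not searched. Ugdh is shown in full because it had the largest change and the only window with 2 cores. Its 250 bases before the start site, chr5:65435843-65436092 on the minus strand, are given with both cores in capitals.

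Ugdh, before the start: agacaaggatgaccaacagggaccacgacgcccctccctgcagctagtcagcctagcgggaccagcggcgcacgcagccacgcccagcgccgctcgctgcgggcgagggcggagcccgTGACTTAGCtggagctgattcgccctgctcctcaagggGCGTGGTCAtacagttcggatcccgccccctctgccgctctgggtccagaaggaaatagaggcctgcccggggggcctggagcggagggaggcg

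The first Ugdh core lies 132 to 124 bases before the start and reads in the direction of the gene. The second lies 94 to 86 bases before it as the reverse complement, and overlaps GCGTG, the core bound by the aryl hydrocarbon receptor, which 32.4% of all windows hold on either strand. In all, GCGTG occurs 3 times in the Ugdh window, and also 3 times in that of Gclm, which did not pass. The cores of the other 4 genes are shown with 10 bases on each side, in the direction of the gene and with the core in capitals, so that they can be compared with it. None of these 4 cores overlaps GCGTG or the AP-1 sequence TGANTCA, which 7.81% of all windows hold. Elsewhere in the windows both sequences occur. The Srxn1 window holds TGANTCA, and no other window of these genes does. GCGTG occurs 2 times each in the windows of Srxn1, Keap1 and the second Txnrd1 start. It occurs 1 time at each of the other Txnrd1 starts, and not in the windows of Nfe2l2, Nqo1 and Ephx1.

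Gclm, chr3:122245413-122245441, plus strand: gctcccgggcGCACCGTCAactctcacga
Txnrd1, second start, chr10:82859104-82859132, plus strand: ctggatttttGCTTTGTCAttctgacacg
Srxn1, chr2:152105542-152105570, plus strand: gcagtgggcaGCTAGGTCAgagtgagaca
Nfe2l2, chr2:75704885-75704913, minus strand: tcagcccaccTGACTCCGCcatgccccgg

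The cores of Gclm, Txnrd1 and Srxn1 read as the reverse complement and that of Nfe2l2 as listed. They lie 134 to 126 bases before the start for Gclm, 92 to 84 for Txnrd1 and 240 to 232 for Nfe2l2, and 29 to 37 bases after it, inside the first exon, for Srxn1. The RefSeq start differs from the first exon of the count tables by 74 bases for Ephx1 and 22 for Nfe2l2. A match of these letters is a description of the window, not a binding site.

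The largest changes were in the genes of conjugation and hydrolysis. Ugdh encodes UDP-glucose dehydrogenase, which makes the UDP-glucuronic acid that glucuronidation consumes, and lies on chromosome 5 from 65413222 to 65435842 (mm10). Its level ranged from 51.4 CPM (median 69.1) to 143 CPM in control mice and from 256 CPM (median 359) to 419 CPM in BIBB-515 mice, so the lowest treated mouse stood well above the highest control mouse. The mean rose from 79.8 ± 35.2 to 344 ± 59.9 CPM (SD, n = 6 each), 4.31-fold, with a log2 fold change of 2.11 (SE 0.23, FDR 4.33e-05). Control mouse 3 held the highest control value, and without it the log2 fold change was 2.36.

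Ephx1 encodes the microsomal epoxide hydrolase, which opens reactive epoxides to diols, and lies on chromosome 1 from 180989556 to 181017495. Its level ranged from 90.8 CPM (median 148) to 219 CPM in control mice and from 385 CPM (median 468) to 542 CPM in BIBB-515 mice. Here too every treated mouse was above every control mouse. The mean rose from 151 ± 47.2 to 459 ± 56.4 CPM (SD, n = 6 each), 3.05-fold, with a log2 fold change of 1.61 (SE 0.18, FDR 4.21e-05). The control mice spread widely in both genes, with a coefficient of variation of 44.1% for Ugdh and 31.3% for Ephx1, against 17.4% and 12.3% in the BIBB-515 mice. They were not high in the same control mouse, since mouse 3 had the most Ugdh and mouse 5 the most Ephx1.

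Nqo1 encodes the quinone reductase that is the usual marker of NRF2 activity, and lies on chromosome 8 from 107388225 to 107403205. It drew few reads, from 6.70 CPM (median 9.55) to 11.5 CPM in control mice and from 11.5 CPM (median 16.9) to 20.2 CPM in BIBB-515 mice, which are 166 to 297 and 283 to 577 counts. All but 1 of the BIBB-515 mice, mouse 9, exceeded the highest control mouse. The mean rose from 9.52 ± 1.70 to 15.9 ± 3.66 CPM (SD, n = 6 each), 1.68-fold, with a log2 fold change of 0.74 (SE 0.16, FDR 0.00636).

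Of the 3 glutathione genes only Gsr, the recycling enzyme, passed the test, and the difference between recycling and synthesis genes was not itself tested. Gsr encodes glutathione reductase, which returns oxidized glutathione to its reduced form with NADPH, and lies on chromosome 8 from 33653238 to 33698162. It ranged from 43.0 CPM (median 46.8) to 53.2 CPM in control mice and from 74.0 CPM (median 83.8) to 91.3 CPM in BIBB-515 mice. Both groups were tight and did not overlap. The mean rose from 46.9 ± 3.80 to 83.4 ± 5.68 CPM (SD, n = 6 each), 1.78-fold, with a log2 fold change of 0.83 (SE 0.07, FDR 1.95e-06), the lowest FDR of the 10 genes.

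Gclc and Gclm encode the catalytic and the modifier subunit of glutamate-cysteine ligase, the rate-limiting enzyme of glutathione synthesis. Gclc, on chromosome 9 from 77754535 to 77794489, ranged from 123 CPM (median 137) to 199 CPM in control mice and from 140 CPM (median 169) to 182 CPM in BIBB-515 mice. No BIBB-515 mouse exceeded the highest control mouse, mouse 6, and the next control mouse stood at 154 CPM. The means were 145 ± 29.1 and 164 ± 16.1 CPM (SD, n = 6 each), with a log2 fold change of 0.18 (95% interval -0.07 to 0.42, FDR 0.33). Without control mouse 6 the log2 fold change was 0.29 and Gclc passed, with an FDR of 0.0469. Gclm, on chromosome 3 from 122245557 to 122267215, ranged from 63.7 CPM (median 80.5) to 92.1 CPM in control mice and from 77.9 CPM (median 90.1) to 104 CPM in BIBB-515 mice. Only 2 BIBB-515 mice were above all control mice. The means were 78.9 ± 11.8 and 91.7 ± 10.2 CPM (SD, n = 6 each), with a log2 fold change of 0.22 (95% interval 0.0001 to 0.43, FDR 0.168). With 1 surrogate variable as covariate its FDR was 0.0448.

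Of the thioredoxin genes Srxn1 rose. It encodes sulfiredoxin, which repairs over-oxidized peroxiredoxins, and lies on chromosome 2 from 152105524 to 152111376. It ranged from 43.7 CPM (median 48.0) to 55.7 CPM in control mice and from 62.3 CPM (median 76.2) to 89.9 CPM in BIBB-515 mice, without overlap. The mean rose from 49.0 ± 4.57 to 76.9 ± 11.1 CPM (SD, n = 6 each), 1.57-fold, with a log2 fold change of 0.65 (SE 0.09, FDR 0.000486). Txnrd1, on chromosome 10 from 82833951 to 82897724, encodes the cytosolic thioredoxin reductase, which keeps thioredoxin reduced with NADPH. It ranged from 95.9 CPM (median 113) to 121 CPM in control mice and from 107 CPM (median 112) to 127 CPM in BIBB-515 mice, so the ranges overlap, with 2 BIBB-515 mice above all control mice. The means were 111 ± 9.14 and 115 ± 7.75 CPM (SD, n = 6 each), with a log2 fold change of 0.05 (95% interval -0.09 to 0.20, FDR 0.643).

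The regulator and its repressor did not pass either. Nfe2l2, on chromosome 2 from 75675519 to 75704641, ranged from 71.7 CPM (median 76.6) to 109 CPM in control mice and from 75.8 CPM (median 81.3) to 89.7 CPM in BIBB-515 mice, so all treated mice lay within the control range. The means were 83.3 ± 15.1 and 81.6 ± 5.39 CPM (SD, n = 6 each), with a log2 fold change of -0.03 (95% interval -0.24 to 0.18, FDR 0.874). Keap1, on chromosome 9 from 21229730 to 21239332, ranged from 44.8 CPM (median 55.7) to 58.8 CPM in control mice and from 56.5 CPM (median 60.8) to 66.8 CPM in BIBB-515 mice. Of the BIBB-515 mice 4 were above all control mice, and all 6 were above the control mean. The means were 53.4 ± 5.83 and 61.5 ± 4.43 CPM (SD, n = 6 each), with a log2 fold change of 0.20 (95% interval 0.04 to 0.37, FDR 0.092). Its FDR was 0.0260 when counts were scaled by library totals alone and 0.04999, just under the threshold, with 1 surrogate variable.

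Single-gene exact permutation tests on log2 CPM, two-sided over all labelings of the 12 mice, gave p = 0.00216 for Ugdh, Ephx1, Gsr and Srxn1, and groups of this size can give no smaller p. The exact p was 0.00433 for Nqo1, 0.0195 for Keap1, 0.0779 for Gclm, 0.162 for Gclc, 0.409 for Txnrd1 and 0.900 for Nfe2l2, all unadjusted.

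Levels of different genes were compared as CPM per kilobase of exon. The length covers every annotated exon record, including those with few reads, so the order and the gaps depend on the annotation. In Keap1, with 4470 bases, a 2262-base record drew 3398 reads over all mice, and a 686-base record inside it drew 2893. In Txnrd1 records of 81 and 338 bases drew 0 and 56 reads. Levels without such records were not computed. In control mice Ephx1 led with 90.5 ± 28.3 CPM per kilobase (SD, n = 6), followed by Gclc (42.4), Gclm (38.1), Nfe2l2 (33.7), Ugdh (32.7), Txnrd1 (27.7), Gsr (17.6), Srxn1 (17.4), Keap1 (11.9) and Nqo1 (6.14 ± 1.09). From Ephx1 to Txnrd1 each gene's range overlapped that of the next, and so did the ranges of Gsr and Srxn1. The steps from Txnrd1 to Gsr, from Srxn1 to Keap1 and from Keap1 to Nqo1 were free of overlap. In BIBB-515 mice Ephx1 (276 ± 33.9) and Ugdh (141 ± 24.6 CPM per kilobase, SD, n = 6) stood clear of all the others. Gclc (47.9) and Gclm (44.2) overlapped each other and lay above Nfe2l2 (33.1), Gsr (31.2), Txnrd1 (28.7) and Srxn1 (27.3), of which each overlapped the next, and Keap1 (13.7) and Nqo1 (10.3), which overlapped, came last. Ugdh moved from rank 5 to rank 2 between the groups.

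**Figure D2:**
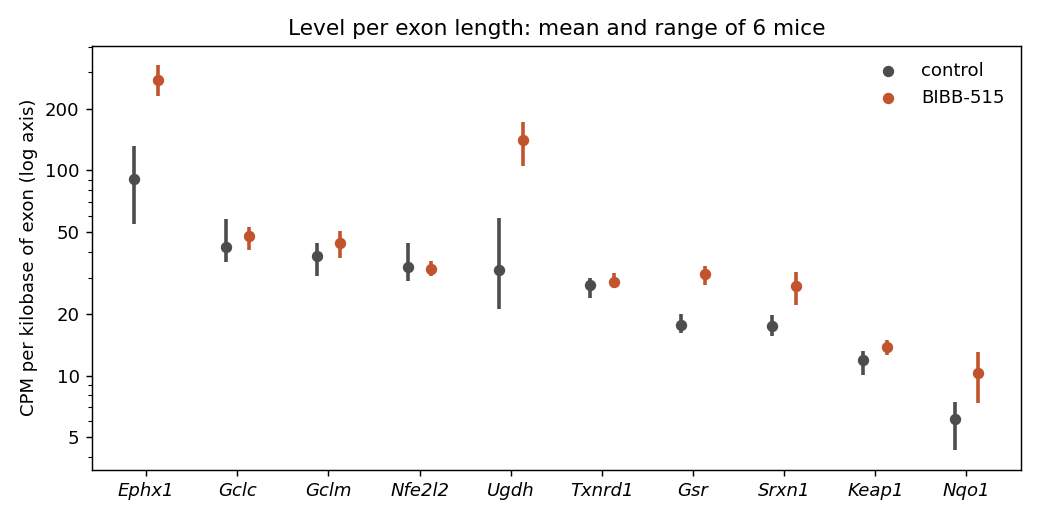
Level per exon length in CPM per kilobase of exon (log axis) for the 10 genes, as the mean (point) and range (line) of 6 control (grey) and 6 BIBB-515 (orange) mice, ordered by the control mean. Ugdh shifts from the middle of the order, at 32.7, to 141, and Ephx1 from 90.5 to 276.

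Ratios of 2 genes within each mouse do not depend on library scaling, and 4 were compared between diets with two-sided exact permutation tests adjusted over the 4. The log2 ratio of Txnrd1 to Gsr, the NADPH-dependent reductases of the thioredoxin and glutathione systems, was 1.24 ± 0.13 in control mice and 0.47 ± 0.07 in BIBB-515 mice (SD, n = 6 each), without overlap. The difference was -0.77 (exact permutation p = 0.00216, adjusted p = 0.00866), so the 2 reductases changed unequally. Nqo1 to Nfe2l2 went from -3.13 ± 0.29 to -2.39 ± 0.33 (SD, n = 6 each), a difference of 0.75 (exact permutation p = 0.00649, adjusted p = 0.0130). Gclm to Gclc was -0.87 ± 0.26 and -0.84 ± 0.17 (SD, n = 6 each), a difference of 0.03 (exact permutation p = 0.81, adjusted p = 0.81). Nfe2l2 to Keap1 was 0.63 ± 0.38 and 0.41 ± 0.19 (SD, n = 6 each), a difference of -0.22 (exact permutation p = 0.236, adjusted p = 0.315), with control mouse 4 highest at 1.28.

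**Figure D3:**
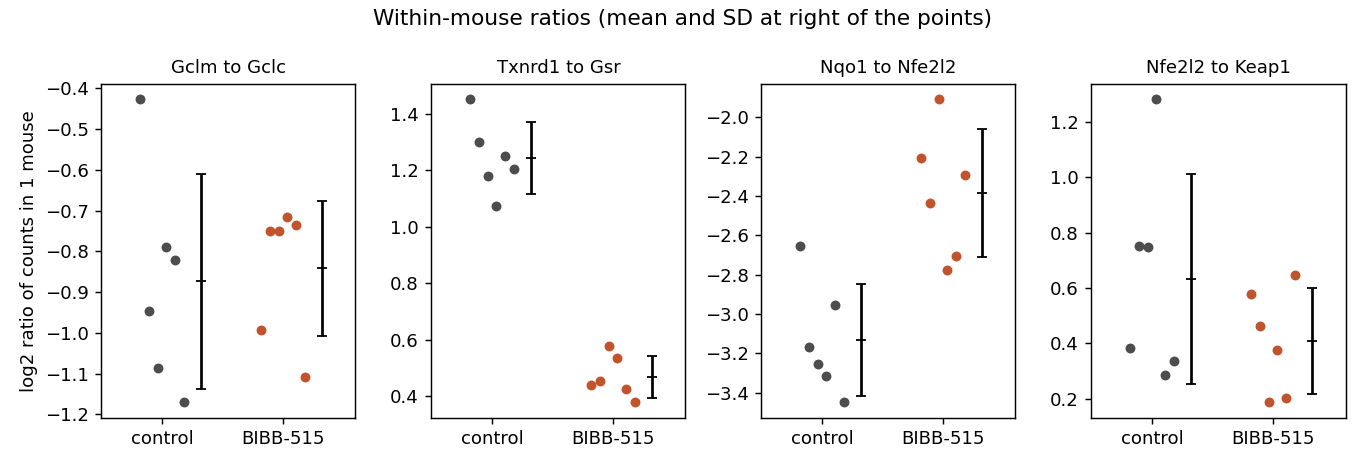
Log2 ratio of the counts of 2 genes in the same mouse (y axis) for 4 pairs, in 6 control (grey) and 6 BIBB-515 (orange) mice, with mean and SD. Only Txnrd1 to Gsr separates the diets completely, at 1.07 to 1.45 in control mice and 0.38 to 0.58 in BIBB-515 mice.

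Whether partner genes varied together among mice on the same diet was asked for 3 pairs in each group of 6. No relation passed after adjustment over the 6. Pearson's r for Gclc with Gclm was 0.43 in control mice and 0.42 in BIBB-515 mice, with exact permutation p of 0.425 and 0.419 and Spearman's rho of 0.37 and 0.66, with exact permutation p of 0.497 and 0.175. For Gsr with Txnrd1 r was 0.42 and 0.71 (exact permutation p = 0.408 and 0.0611) and rho 0.49 and 0.71 (exact permutation p = 0.356 and 0.136). For Nqo1 with Srxn1 r was 0.38 and 0.70 (exact permutation p = 0.481 and 0.119) and rho 0.31 and 0.71 (exact permutation p = 0.564 and 0.136). The lowest adjusted exact permutation p was 0.358 for r and 0.35 for rho. Without the 2 mice farthest from the median of the first gene, r was -0.28 and 0.33 for Gclc with Gclm, -0.06 and 0.46 for Gsr with Txnrd1, and -0.02 and 0.56 for Nqo1 with Srxn1.

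The deposited exon tables showed where along each gene the reads differed. In Ugdh all 12 exons and in Ephx1 all 9 exons had every BIBB-515 mouse above every control mouse, with log2 ratios of the group means between 2.04 and 2.41 and between 1.54 and 1.68. In Gsr this held for 12 of 13 exons, with log2 ratios between 0.75 and 1.15, and the exception was the first exon, which drew 152 reads over all mice. Both exons of Srxn1 were higher without overlap, at 1.09 for the first and 0.65 for the last, which held 97.6% of its exon reads. The 6 exons of Nqo1 were all higher on average, between 0.67 and 1.16, and the groups did not overlap in 2 of them. No exon of Gclc, Gclm, Txnrd1, Nfe2l2 or Keap1 separated the groups. The log2 ratio was above 0 in all 16 exons of Gclc (0.11 to 0.40) and all 7 of Gclm (0.17 to 0.35). In Nfe2l2 it lay between -0.04 and 0.07, and in Keap1, where the records at the 5′ end overlap each other, between -0.12 and 0.33. Of the alternative first exons of Txnrd1, the one at 82833951 drew 0 reads in all 12 mice. The one at 82859206, whose promoter window holds the core shown above, drew 198 reads, and the one at 82860341 drew 343 reads. A shorter record inside the latter, from 82860524 to 82860630, drew 334 reads, so the 343 need not come from that start. The log2 ratios of Txnrd1 were between 0.18 and 0.28 in the 7 compared records up to the ninth, the overlapping ones included. They were between 0.003 and 0.07 in the 9 after the ninth. The last exon held the largest share of exon reads in every one of the 10 genes, from 29.0% in Ephx1 to 97.6% in Srxn1.

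**Figure D4:**
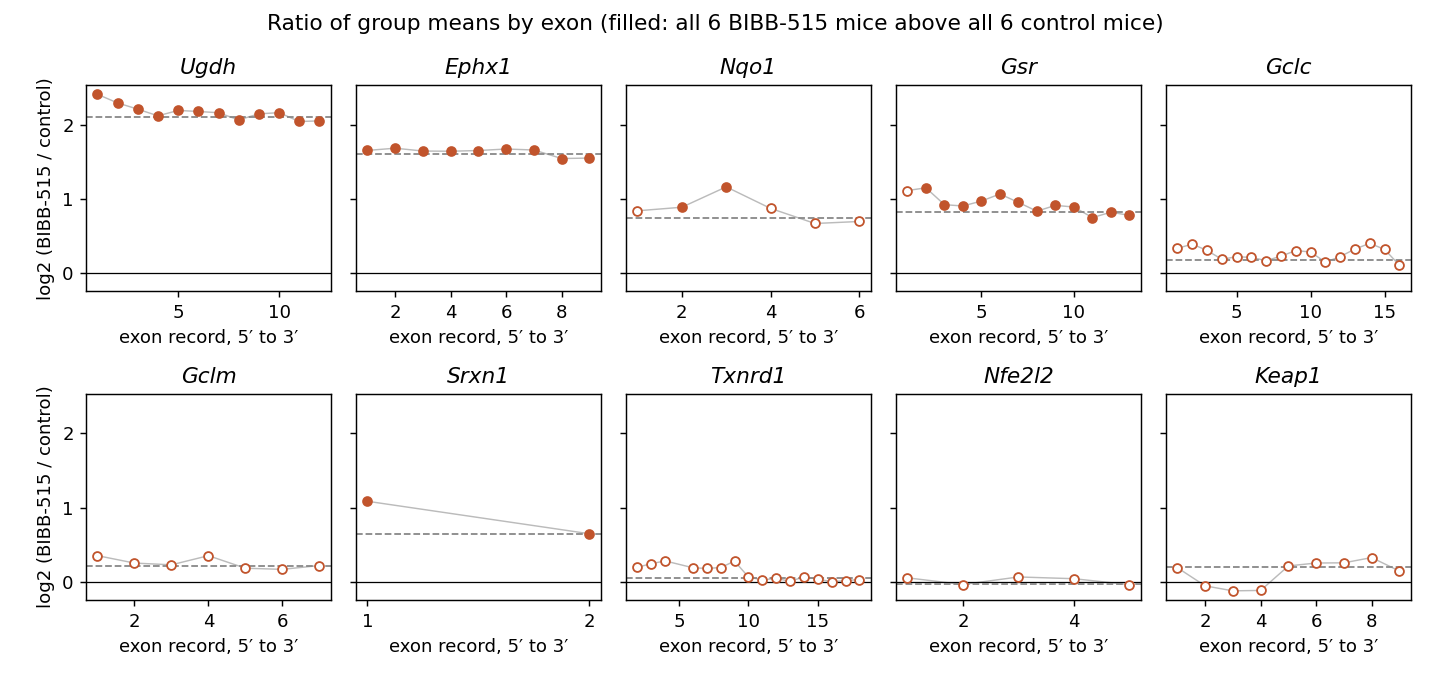
Log2 ratio of the mean exon level, BIBB-515 over control (y axis), for each exon record in 5′ to 3′ order (x axis) with at least 100 reads over all mice. Filled points mark exons where all 6 BIBB-515 mice exceed all 6 control mice, and the dashed line is the log2 fold change of the gene. Ugdh and Ephx1 are filled along their whole length, while Gclc, Gclm, Txnrd1, Nfe2l2 and Keap1 have no filled point.

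None of the 10 genes shares an exon position with another gene of the tables. Of the 10, 6 had no 50-base word of their transcripts in common with a transcript of another gene, and the share was 7.78% for Keap1, 4.58% for Gclm, 1.84% for Ugdh and 1.70% for Ephx1.

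The wider pathway was described by 5 lists of genes. Of 20 tested genes of glutathione synthesis, recycling and use other than the members, 5 rose and 2 fell, which is 35.0% against the 13.7% of all tested genes, with a median log2 fold change of 0.06. Gpx4, the glutathione peroxidase that reduces lipid hydroperoxides, rose from 165 ± 15.2 to 284 ± 25.2 CPM (SD, n = 6 each), with a log2 fold change of 0.78 (SE 0.08, FDR 1.95e-05), but 34.7% of its 50-base words occur in other transcripts, mainly of a pseudogene, so its value is uncertain. Gpx7, an endoplasmic reticulum peroxidase, rose by 0.66 on the log2 scale, Glrx5, a mitochondrial glutaredoxin of iron-sulfur cluster assembly, by 0.40, and Esd, which frees glutathione from its formaldehyde adduct, by 0.35. Chac2, which degrades glutathione, fell from 19.8 ± 2.98 to 13.7 ± 0.889 CPM (SD, n = 6 each), with a log2 fold change of -0.53 (SE 0.10, FDR 0.00239). Glrx2, a mitochondrial glutaredoxin, had a log2 fold change of -0.28 (FDR 0.0237), and its call was lost without control mouse 1 or 6 or BIBB-515 mouse 7, with FDR of 0.0515, 0.0543 and 0.0542. Slc7a11, the cystine transporter and a well-known NRF2 target, had 0 to 5 counts per mouse and was not tested. It and Hmox1 were named after their values were seen.

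Of 19 tested genes of the thioredoxin and peroxiredoxin system other than the members, 4 rose and 2 fell, which is 31.6% against 13.7%, with a median log2 fold change of 0.11. Msra, which repairs oxidized methionine, rose from 136 ± 5.88 to 176 ± 8.45 CPM (SD, n = 6 each), with a log2 fold change of 0.38 (SE 0.06, FDR 0.000503). Txnrd3, a relative of Txnrd1 that also acts on glutathione disulfide, rose by 0.28 on the log2 scale (FDR 0.0174). Prdx4, the peroxiredoxin of the endoplasmic reticulum, fell from 102 ± 14.6 to 74.1 ± 4.27 CPM (SD, n = 6 each), with a log2 fold change of -0.47 (SE 0.09, FDR 0.00331). The calls of Prdx2 (0.20), Sesn2 (0.42) and Msrb3 (-0.28) on the log2 scale were near the threshold, at FDR of 0.0338, 0.0351 and 0.0383, and each was lost in fits that left out 1 mouse. Prdx2 was lost without control mouse 1 or BIBB-515 mouse 7, 8, 9, 10 or 11, with FDR of 0.0594 to 0.0793. Sesn2 was lost without control mouse 1, 4, 5 or 6 or BIBB-515 mouse 6, 8, 9, 10 or 11, with FDR of 0.0508 to 0.0759. Msrb3 was lost without control mouse 1, 2, 3 or 4 or BIBB-515 mouse 8, 9, 10 or 11, with FDR of 0.0635 to 0.0867. Prdx2 shares 12.0% of its 50-base words with other transcripts.

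Among 14 other genes that control NRF2, 3 rose and none fell, which is 21.4% against 13.7% and few genes to compare, with a median log2 fold change of 0.05. They were Park7 (0.42, FDR 0.000728), whose protein DJ-1 is described as stabilizing NRF2, Dpp3 (0.35, FDR 0.000626), a peptidase that can bind KEAP1, and Mafg (0.27, FDR 0.0129), a small MAF partner, all as log2 fold changes. All BIBB-515 mice exceeded all control mice in each of the 3, as in 4.35% of all tested genes. These 3 were picked as past the test in the same data, so their separation follows in part from that choice. The other 11 did not pass.

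Of 26 other textbook NRF2 targets, 14 rose and 1 fell, which is 57.7% against the 13.7% of all tested genes, with a median log2 fold change of 0.45. Gstm1, a glutathione S-transferase, rose from 1153 ± 326 to 5347 ± 696 CPM (SD, n = 6 each), with a log2 fold change of 2.21 (SE 0.17, FDR 1.00e-06), and 18.9% of its 50-base words occur in other transcripts. Abcc3, which exports glucuronides to the blood, rose from 214 ± 69.2 to 694 ± 91.8 CPM (SD, n = 6 each), with a log2 fold change of 1.70 (SE 0.18, FDR 3.07e-05). Gstm4 rose by 1.19 and Gsta4, which conjugates the lipid aldehyde 4-hydroxynonenal, by 0.95 on the log2 scale, and all 4 were free of overlap. These 4 were named for the lowest p among the risers of the list, so their separation follows largely from that choice. Adh7, an alcohol dehydrogenase, fell from 19.3 ± 3.79 to 10.8 ± 2.09 CPM (SD, n = 6 each), with a log2 fold change of -0.83 (SE 0.14, FDR 0.0019). Hmox1, heme oxygenase 1 and one of the best-known targets, was at 22.2 ± 4.26 and 23.3 ± 5.96 CPM (SD, n = 6 each), with a log2 fold change of 0.07 (95% interval -0.26 to 0.41, FDR 0.795).

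Of 7 tested neighbors of Ugdh and Ephx1 in glucuronate and epoxide metabolism, 2 rose and 1 fell, which is 3 of 7 against 13.7% of all tested genes, with a median log2 fold change of 0.15. Gusb, which splits glucuronides, rose from 31.7 ± 3.86 to 41.7 ± 1.21 CPM (SD, n = 6 each), with a log2 fold change of 0.40 (SE 0.07, FDR 0.00258). Akr1a1, which reduces glucuronate toward ascorbate, rose by 0.33 on the log2 scale (FDR 0.00681). Gulo, the last enzyme of ascorbate synthesis, fell from 498 ± 55.4 to 365 ± 11.4 CPM (SD, n = 6 each), with a log2 fold change of -0.45 (SE 0.08, FDR 0.00148), and every BIBB-515 mouse lay below every control mouse.

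**Figure D5:**
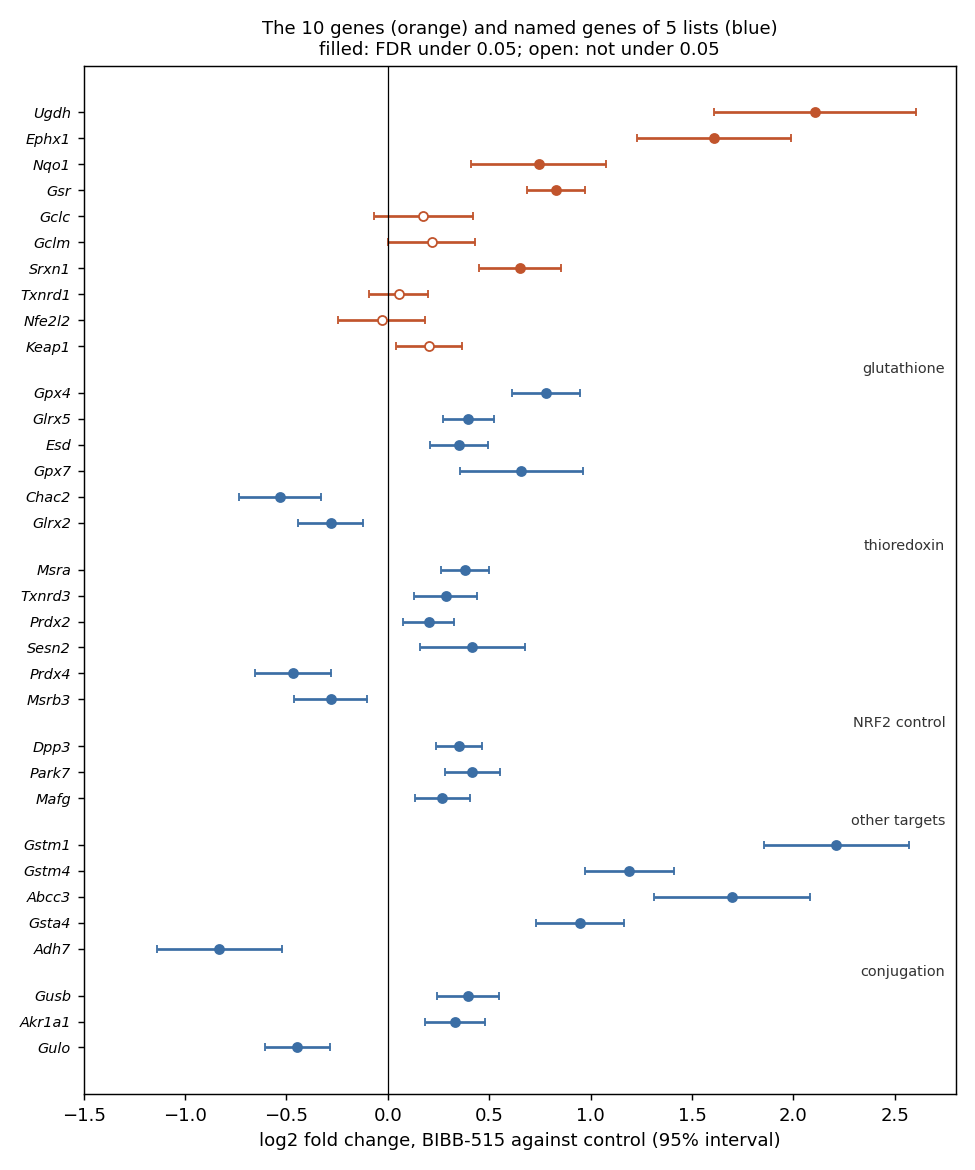
Log2 fold change of BIBB-515 against control with its 95% interval (x axis) for the 10 genes (orange) and the named genes of the 5 lists (blue, chosen among those past the test), with filled points at an FDR under 0.05. Ugdh (2.11) lies between Abcc3 (1.70) and Gstm1 (2.21), and Ephx1 (1.61) just below Abcc3, while Gclc, Gclm, Txnrd1, Nfe2l2 and Keap1 are open points between -0.03 and 0.22.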

How the data were processed

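Liver RNA from 6 control and 6 BIBB-515 mice was sequenced. The deposited tables hold whole-number counts per gene that the authors made, per the labels and file headers, with STAR 2.5.3a and featureCounts of Subread 1.6.3 on mm10, without strand and without reads on several places or genes. The deposited exon tables count such reads for each exon, and the tables of primary alignments were an alternative. Transcript tables were not used. Labels gave each diet, and no batch is given.

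Of 24062 genes, 12481 reached 1 CPM in 2 or more of the 12 mice, a filter that the study describes for its human samples, and entered edgeR 4.0.16 (R 4.3.3, TMM factors, quasi-likelihood test, diet as the only term, Benjamini-Hochberg adjustment). On simulated counts for BIBB-515 against control with 200 of 12481 genes changed, 97% were recovered at a log2 change of 1 and 53% at 0.5, with 4.46% false among calls. At the depth of 22764819 to 31058370 counts per mouse the common biological coefficient of variation was 0.143. No library repeated another of its group, since counts of each such pair gave a chi-square per degree of freedom of 12.1 or more. The labels do not say whether cages or preparation days were shared, which the p-values cannot account for. Ratios and pairs were tested by exact permutation (SciPy 1.17.1). All 10 genes are named, and of each list the genes past an FDR of 0.05 with the lowest p, at most 4 in each direction. The genes and lists were chosen with earlier results of these data known. The alternatives comprised limma-voom (limma 3.58.1), DESeq2 1.42.0, the likelihood ratio test, upper-quartile normalization, no filter, 1 CPM in at least 6 mice, primary alignments, 1 surrogate variable (sva 3.50.0), each mouse left out and, added after seeing the data, library totals alone.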

Additional observations from a re-analysis of the deposited data

Results flagged for a closer look

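Of 70 groups of 6 mice examined, each 1 named gene in 1 diet, 2 held a mouse far from the rest, while chance flags about 1 in 20. Gusb in control mouse 2 was at 39.5 CPM against 30.6 CPM in the next and 28.8 CPM in the lowest control mouse, a gap of 0.831 of the whole range. Glrx2 in BIBB-515 mouse 7 was at 16.8 CPM against 18.7 CPM in the next and 19.6 CPM in the highest BIBB-515 mouse, a gap of 0.649 of the range. None of the 10 genes themselves was flagged in this way.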

How the results depend on the processing

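With all 12 mice, between 5 and 7 of the 10 genes rose across 9 alternatives, and between 5 and 6 across the 12 fits that left out 1 mouse. Ugdh, Ephx1, Gsr, Nqo1 and Srxn1 passed in all 21 of these fits, with log2 fold changes of 2.01 to 2.36, 1.50 to 1.75, 0.80 to 0.88, 0.67 to 0.82 and 0.60 to 0.70. Library totals alone moved the median log2 fold change of all genes from -0.01 to 0.04. The sign of Nfe2l2 turned with library totals alone (0.019) and without control replicate 3 (0.014) or 4 (0.071), in a range of -0.069 to 0.071 when a mouse was left out, and that of Hmox1 without BIBB-515 replicate 7, in a range of -0.072 to 0.14, none of them past the test. The difference in Gclm to Gclc ranged from -0.028 to 0.12 when a mouse was left out and was below 0 without control replicate 3 (-0.011) or 6 (-0.028). Txnrd1 to Gsr (-0.81 to -0.73) and Nqo1 to Nfe2l2 (0.65 to 0.84) still passed. In the thioredoxin list 8 genes rose with library totals alone in place of 4, and 1 fell in place of 2 with library totals alone and with no filter. Leaving out a mouse gave 2 to 4 higher and 1 to 2 lower in that list, and 1 to 2 lower in the glutathione list. In the list of other targets 2 genes fell with 1 surrogate variable in place of 1. The cause of these shifts was not tested. No paired analysis was made, because each diet was eaten by different mice. The replicate number 6 that the diets share is not described as a pair. At the depth of Nqo1, 166 to 577 counts per mouse, sampling error adds to the spread between mice.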

Other observations

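Among the BIBB-515 mice, mouse 9 had the lowest level of all 5 genes that rose, and the lowest of 7 of the 10 genes. Mouse 9 was the lowest of its group in 13.4% of all tested genes, and the other BIBB-515 mice in 13.8% to 21.6%. Over the 896 genes that were higher with BIBB-515, mouse 9 was the lowest of its group in 24.3%, close to mouse 7 (21.7%) and mouse 6 (21.0%), and the other BIBB-515 mice were the lowest in 9.49% to 13.5%. Control mice 1 and 4 were the lowest of their group in 23.9% and 23.5% of the same genes. In control mice no mouse was lowest in more than 2 of the 5 genes that rose, while control mouse 3 was the highest in 3 of them, Ugdh, Gsr and Srxn1.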
